A study of Bos taurus with 6 samples.

Results

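The genes described here carry out meiotic recombination: SPO11, PRDM9, DMC1, PSMC3IP, MEIOB, SPATA22, MSH4, MSH5, HFM1 and RNF212. They were chosen by name, and 9 of the 10 names had a row among the 47249 genes of the deposited table. No row of the table carries the name RNF212, and that gene was not analysed here. RNA was taken from testes of untreated Wandong cattle (Bos taurus), 3 calves aged 3 months and 3 bulls aged 3 years, with 1 library for each animal after ribosomal RNA had been removed. The labels call the calves immature and the bulls andrologically mature, and each library is labelled as testis tissue, not as sorted cells, so a value sums over the cell types in the sample. The comparison of the groups asks how the testis transcriptome changes from the immature to the mature animal. Levels are given in FPKM, the fragments of a transcript divided by its length and by the size of the library, so that genes can be compared with each other.

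Meiotic recombination begins when SPO11, a relative of topoisomerases, cuts the DNA at sites that PRDM9 has marked by methylating histones. The resected ends are covered by RPA and by the MEIOB and SPATA22 complex, and the recombinase DMC1, loaded and stimulated by PSMC3IP and its partner MND1, carries them into the homologous chromosome. MSH4 and MSH5, which act as a pair, and the helicase HFM1 stabilize and mature the joint molecules that become crossovers, and RNF212 selects which of them do so. These events take place in primary spermatocytes, the cells in meiotic prophase, which are scarce in a testis before puberty and abundant in an adult.

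The library labelled calf 3 stood apart from the other 5. Its 9 markers of neural tissue, among them myelin and astrocyte genes, were each highest in calf 3 and summed to 13902 FPKM, against 11.002 to 18.28 FPKM in the other libraries. Of 8 markers of Sertoli cells, 6 were lowest in calf 3, and FSHR, WT1 and GATA4 among them were listed at 0 there. The others, SOX9 (13.7 FPKM) and CLU (423 FPKM), were higher in calf 3 than in every bull. All 8 Leydig cell rows were lowest in calf 3. The neural and Leydig cell markers and most of the Sertoli cell markers thus go against the tissue label of calf 3. The sum of FPKM over all genes ran from 587066 in calf 3 to 1098715 in calf 2 and from 732130 to 776839 in the bulls. For these reasons the results are given with and without calf 3, and calf 1 and calf 2 are the reference for ratios of means.

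By gene rows, all 9 genes had higher FPKM in every bull than in every calf. Counted by the test over all genes, which needed an adjusted p below 0.05 and a change of at least 2-fold on the log2(FPKM + 1) scale, 7 of the 8 members tested were higher in bulls and 0 were lower: SPATA22, MEIOB, DMC1, PSMC3IP, HFM1, MSH4 and SPO11, the last of which entered the test only through the bulls. In bulls 93.6% of the SPO11 value came from an assembled transcript that runs across BMP7. Its annotated transcript overlapped between the groups, as described further on. Of all 18115 genes tested, 35.7% were called higher in bulls and 9.61% lower, and in 46.1% every bull lay above every calf (35.6% of all 47249 rows). Without calf 3, 5 of 8 members were called higher (SPATA22, MEIOB, DMC1, PSMC3IP and HFM1), against 39.5% of 17329 genes. The median log2 fold change was 2.35 over the 8 members and 0.43 over all genes tested. Tissue was measured, and fewer cells of a type in the calf testis cannot be told apart from less RNA of these genes in each cell.

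Marker genes of spermatocytes moved in the same direction. All 8 of them were higher in every bull than in calf 1 and calf 2, and their summed FPKM was 20.5 and 26.9 in calf 1 and calf 2, 2.81 in calf 3 and 653 to 778 in the bulls. The 6 markers of round spermatids summed to 3.32, 3.31 and 0.0404 FPKM over the calves, in the same order, and to 462 to 547 FPKM in bulls. In calf 3, 7 of the 8 spermatocyte markers lay below 1 FPKM, and TEX101 was listed at 0. The part that the number of spermatocytes plays in the changes given below was not tested.

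**Figure D1:**
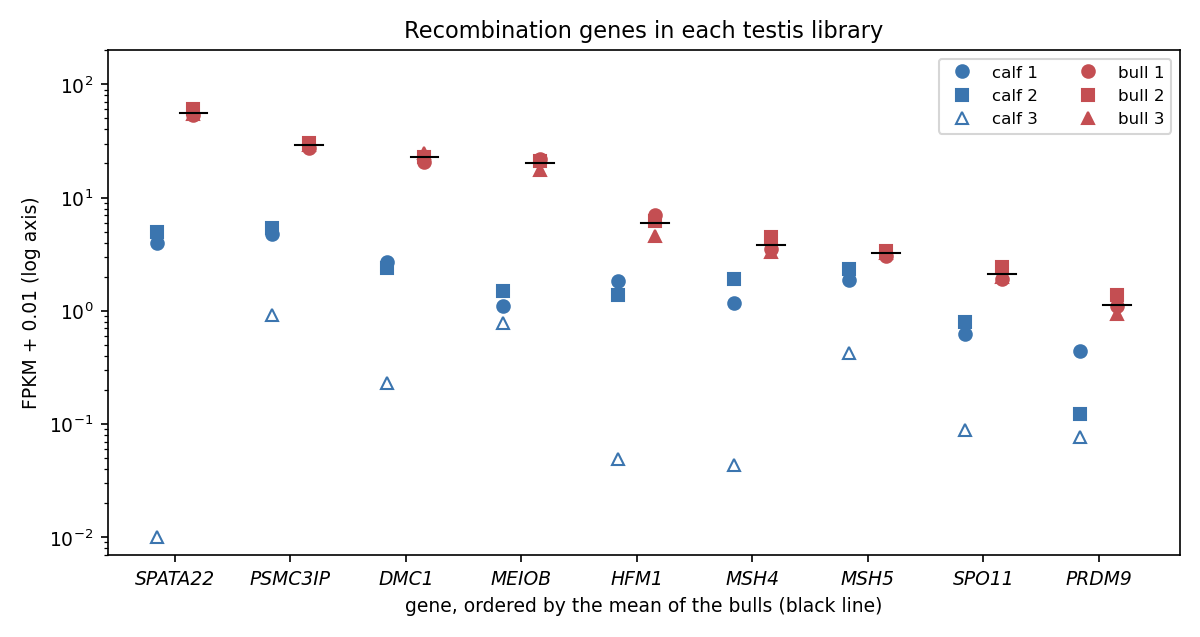
FPKM of the 9 recombination genes in each library, on a log axis after adding 0.01; blue symbols are calves (open triangle, calf 3), red symbols are bulls, and the black line is the mean of the 3 bulls. In bulls the genes run from SPATA22 (mean 56.2 FPKM) down to PRDM9 (mean 1.13 FPKM), every bull lies above every calf for each gene, and calf 3 is the lowest library for each gene.

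The levels in bulls covered a wide range. SPATA22 was highest with 56.2 ± 3.97 FPKM (SD, n = 3), followed by PSMC3IP with 28.9 ± 1.41 and DMC1 with 22.8 ± 2.05. MEIOB reached 20.1 ± 2.31 FPKM, and its range overlapped with that of DMC1. HFM1 came next with 5.90 ± 1.26 FPKM, then MSH4 with 3.77 ± 0.659 and MSH5 with 3.21 ± 0.147. MSH4 and MSH5 overlapped in range, although MSH4 was the higher of the pair in 3 of 3 bulls. The lowest bull for HFM1 (4.53 FPKM) lay just above the highest bull for MSH4 (4.52 FPKM). SPO11, with 2.09 ± 0.275 FPKM, and PRDM9, with 1.13 ± 0.216, were lowest, and their ranges were apart from their neighbours. The genes that act on the resected ends and in strand exchange were therefore all above the genes of crossover maturation, and the genes that start recombination were at the bottom.

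The order in calf 1 and calf 2 was different. PSMC3IP (mean 5.09 FPKM) and SPATA22 (4.50 FPKM) led and overlapped, followed by DMC1 (2.53 FPKM) and MSH5 (2.10 FPKM). HFM1, MSH4 and MEIOB lay between 1.10 and 1.90 FPKM and overlapped. SPO11 (0.701 FPKM) and PRDM9 (0.273 FPKM) were again lowest. By mean level, MEIOB ranked the seventh in these calves and the fourth in bulls, and MSH5 ranked the fourth in these calves and the seventh in bulls. This exchange depended on the transcripts counted: over those within the annotated spans, described further on, MSH5 ranked the sixth in both groups and MEIOB the fifth in these calves and the fourth in bulls.

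The initiating nuclease SPO11 lies at chr13:58809695-58975032 by the span in the table. With libraries in the order of their numbers, here and for every gene that follows, the calves had 0.613, 0.789 and 0.0784 FPKM and the bulls had 1.89, 2.41 and 1.98 FPKM. The gene passed the filter of at least 1 FPKM in at least 3 libraries only through the bulls. The log2 fold change was 1.08 (SE 0.22, adjusted p = 0.00669), and without calf 3 it was 0.86, which is below the 2-fold that a call needs. Most of this value did not come from the annotated SPO11 transcript. An assembled transcript, TCONS_00076277, covers the whole span, of which 8.70% is the Ensembl span of SPO11 and which runs on across BMP7 (chr13:58889622-58975046), a growth factor gene. It carried 93.6% of the FPKM of SPO11 in bulls and 70.3% in calf 1 and calf 2. The Ensembl transcript SPO11-201 (chr13:58813693-58828073) had 0.177, 0.240 and 0 FPKM in the calves and 0.131, 0.0628 and 0.206 FPKM in the bulls. For that transcript the groups overlapped, and the mean of the bulls (0.133 FPKM) was below the mean of calf 1 and calf 2 (0.208 FPKM). BMP7 itself had 1.39, 2.27 and 4.74 FPKM in the calves and 9.69, 13.1 and 11.5 FPKM in the bulls.

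PRDM9 (chr1:157502006-157559387), the methyltransferase that places hotspots, was the weakest member by gene rows and did not pass the filter. Its FPKM was 0.433, 0.112 and 0.0661 in the calves and 1.09, 1.36 and 0.933 in the bulls. Fitted with no filter, its log2 fold change was 0.83 (SE 0.18, adjusted p = 0.0184), which is short of the 2-fold limit, and it was 0.75 without calf 3. In these fits, 15.6% of 44657 genes and, without calf 3, 16.5% of 44287 genes were called higher in bulls. An antisense transcript, PRDM9-AS1, made up 71.1% of the value in calf 1 and calf 2 but 6.72% in bulls. The Ensembl transcripts alone had 0.105, 0.0525 and 0 FPKM in the calves and 1.03, 1.23 and 0.898 FPKM in the bulls, a ratio of means of 13.3 over calf 1 and calf 2 in place of 4.13. Nearly all of it came from PRDM9-201, since PRDM9-202 was listed at 0 in all 6 libraries.

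SPATA22 (chr19:24190707-24212643), the partner of MEIOB on single-stranded DNA, showed the largest change of the 8 members tested. The first 2 calves had 3.998 and 5.001 FPKM, calf 3 was listed at 0, and the bulls had 53.6, 60.8 and 54.3 FPKM. The log2 fold change was 4.20 (SE 0.69, adjusted p = 0.00278) and 3.38 without calf 3 (SE 0.13, adjusted p = 3.74e-06). The bulls were 12.5-fold above the mean of calf 1 and calf 2. Of its 7 transcripts, 5 are assembled isoforms that together held 61.0% of the bulls' FPKM. SPATA22-202, the main annotated isoform, had 1.05, 0.877 and 0 FPKM in the calves and 28.7, 21.3 and 14.5 FPKM in the bulls. The split among isoforms varied between bulls more than their sum, since the assembled TCONS_00149318 was listed at 0 in bull 2 and had 6.15 and 11.2 FPKM in bull 1 and bull 3.

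MEIOB (chr25:1403263-1457609), which binds single-stranded DNA together with SPATA22, had 1.10, 1.499 and 0.778 FPKM in the calves and 21.9, 20.9 and 17.5 FPKM in the bulls. Its log2 fold change was 3.32 (SE 0.20, adjusted p = 5.2e-05), and leaving out calf 3 gave 3.20. With a 15.5-fold ratio of bulls to calf 1 and calf 2, MEIOB had the largest ratio of the 9 genes. An assembled transcript within the annotated span, TCONS_00224114, held most of it, with 17.6, 10.6 and 15.3 FPKM in the bulls. A longer assembled transcript, TCONS_00224116, reaches from MEIOB over the unannotated entry XLOC_149027. It had 4.40 FPKM in bull 2 and 0.647 FPKM in calf 3, where it was 83.1% of the gene's value, and was listed at 0 in the other 4 libraries. XLOC_149027 showed the reverse in bulls, with 12.3, 0.205 and 9.84 FPKM. Over transcripts within the annotated span, MEIOB in calf 3 was at 0.131 FPKM, and the log2 fold change was 3.43 with calf 3 and 3.09 without it.

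DMC1 (chr5:110180494-110230987) is the recombinase that acts in meiosis alone. Its FPKM was 2.67, 2.40 and 0.220 in the calves and 20.7, 22.9 and 24.8 in the bulls, so the groups were far apart. It rose by a log2 fold change of 3.26 (SE 0.45, adjusted p = 0.00132), or 2.75 without calf 3 (SE 0.13, adjusted p = 8.71e-06). The bulls were 8.99-fold above calf 1 and calf 2. Nearly all of the value was DMC1-201, with 2.57, 2.40 and 0.145 FPKM in the calves and 18.9, 20.7 and 22.9 FPKM in the bulls, whereas 2 transcripts named antisense held 7.19% in bulls.

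PSMC3IP (chr19:42650230-42654921), known as HOP2, helps DMC1 to capture the homologous duplex. It had 4.76, 5.42 and 0.901 FPKM in the calves and 27.3, 30.1 and 29.2 FPKM in the bulls. Its log2 fold change was 2.86 (SE 0.48, adjusted p = 0.00312) and 2.30 without calf 3, and the ratio of bulls to calf 1 and calf 2 was 5.68. Among the members called without calf 3, PSMC3IP and HFM1 thus had the smaller ratios. PSMC3IP-201 carried 97.2% of the value in bulls. A shorter assembled transcript, TCONS_00151625, stayed between 0.516 and 1.48 FPKM in all 6 libraries.

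HFM1 (chr3:51977847-52089539), a helicase of the crossover pathway, had 1.81, 1.36 and 0.0389 FPKM in the calves and 7.002, 6.17 and 4.53 FPKM in the bulls. The log2 fold change was 1.84 (SE 0.41, adjusted p = 0.0101) and 1.40 without calf 3 (SE 0.20, adjusted p = 0.00101). Of its FPKM in bulls, 99.6% came from 2 assembled transcripts with nearly the same ends, and the annotated HFM1-201 stayed at or below 0.0831 FPKM in every library. Bull 1 had 1.21 FPKM of TCONS_00260638 and 5.78 FPKM of TCONS_00260640. In bull 2 these were 5.21 and 0.902 FPKM, and in bull 3 they were 4.46 and 0.0593 FPKM. The assignment between the pair of isoforms thus differed between animals while the sum kept the groups apart.

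MSH4 (chr3:68670563-69066147) and MSH5 (chr23:27558157-27581390) form the clamp that holds recombination intermediates. MSH4 had 1.15, 1.90 and 0.0333 FPKM in the calves and 3.52, 4.52 and 3.27 FPKM in the bulls, with a log2 fold change of 1.35 (SE 0.40, adjusted p = 0.0284) that became 0.92 without calf 3 and then missed the 2-fold limit. MSH5 had 1.86, 2.35 and 0.415 FPKM in the calves and 3.05, 3.33 and 3.26 FPKM in the bulls. Its log2 fold change of 0.82 (SE 0.34, adjusted p = 0.0854) did not pass the test, and without calf 3 it was 0.45 (95% interval 0.09 to 0.80). By gene rows, MSH5 was therefore the only member tested that was not called.

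The rows of both genes include assembled transcripts that overlap neighbouring genes. For MSH5, the assembled TCONS_00208944 (chr23:27575420-27581390) lies over CLIC1 (chr23:27575514-27581255), a chloride channel gene that had 45.1, 55.6 and 7.2 FPKM in the calves and 13.2, 14.6 and 10.8 FPKM in the bulls. TCONS_00208944 had 1.03, 1.54 and 0.320 FPKM in the calves and 0.487, 0.552 and 0.616 FPKM in the bulls, which was 61.0% of MSH5 in calf 1 and calf 2 and 17.2% in bulls. The annotated MSH5-201 (chr23:27558157-27571976) had 0.589, 0.661 and 0.0953 FPKM in the calves and 2.40, 2.70 and 2.63 FPKM in the bulls. In the test over 23212 transcripts, of which 34.8% were called higher in bulls, MSH5-201 rose by a log2 fold change of 1.33 (SE 0.20, adjusted p = 0.00213). Without calf 3 this was 1.14 (adjusted p = 0.00113), also a call, beside 39.0% of transcripts called higher. MSH5-201 was below 1 FPKM in every calf and entered the test only through the bulls.

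For MSH4, 3 assembled transcripts reach outside the annotated gene, 2 of them into RABGGTB (chr3:69050074-69066147) and another over ASB17, a gene at 55.3 to 75.3 FPKM in bulls and listed at 0 in calves. They carried 74.8% of the value of MSH4 in calf 1 and calf 2 and 39.8% in bulls. Summed over the transcripts within the annotated span, MSH4 had 0.203, 0.567 and 0 FPKM in the calves and 2.11, 2.60 and 2.10 FPKM in the bulls. The ratio of bulls to calf 1 and calf 2 was then 5.89, against 2.47 by the gene row.

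**Figure D2:**
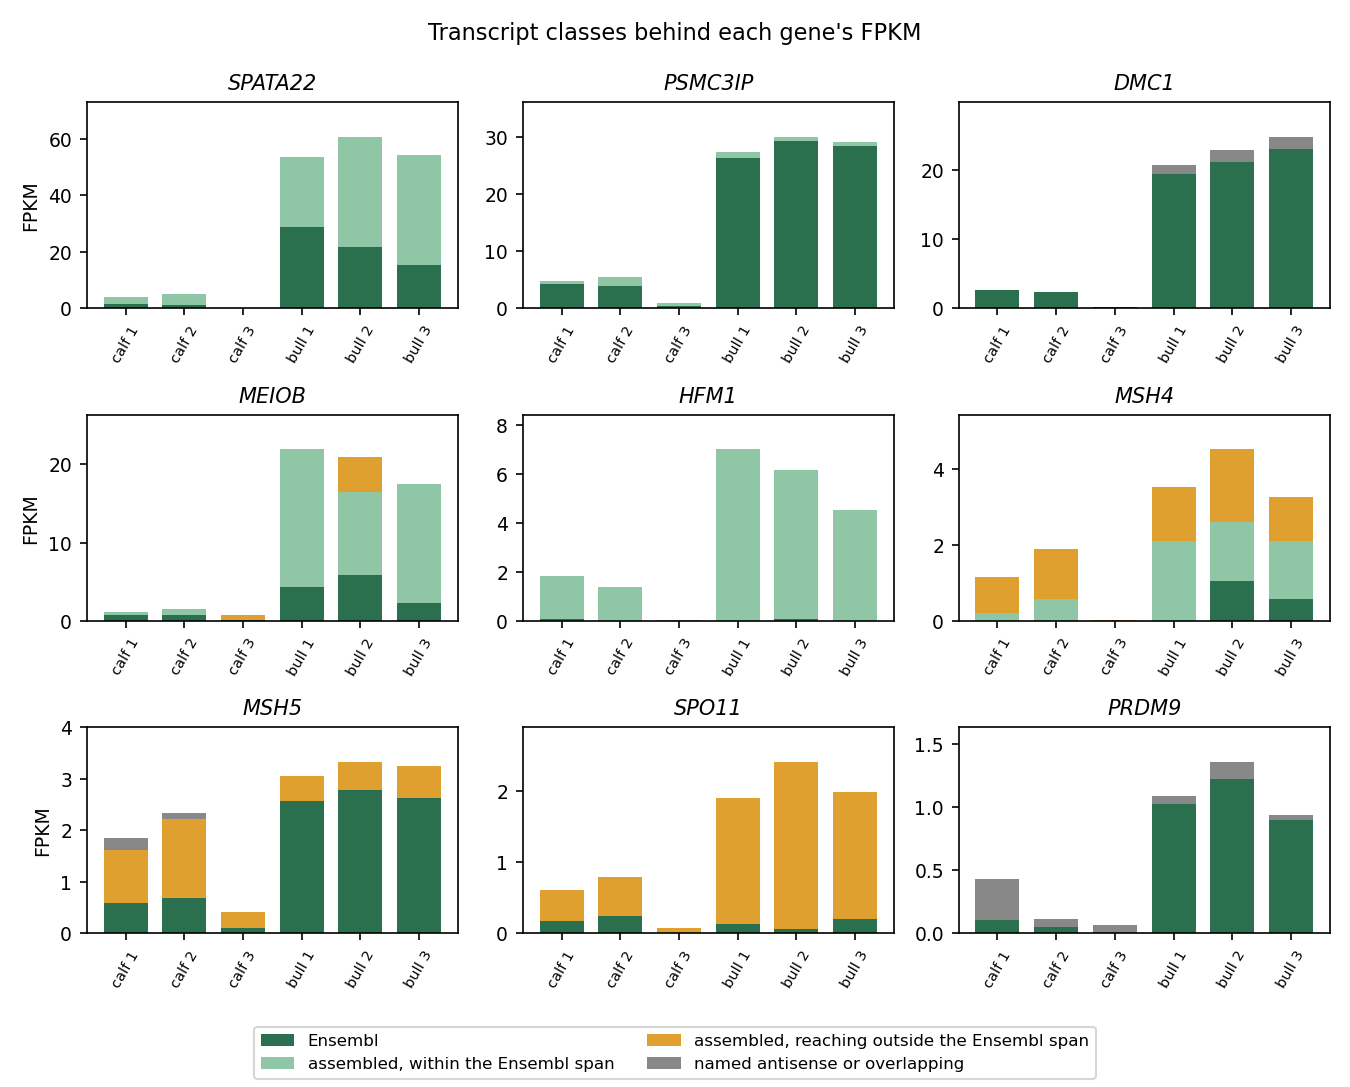
FPKM of each recombination gene in each library, as stacked bars that add up to the gene's value, split by class of transcript: Ensembl, assembled within the span of the Ensembl transcripts, assembled and reaching outside it, and named antisense or overlapping. The orange class makes up 93.6% of SPO11 in bulls, 61.0% of MSH5 and 74.8% of MSH4 in calf 1 and calf 2, and the grey class 71.1% of PRDM9 in calf 1 and calf 2.

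The transcripts were sorted into classes after the values had been seen. The 9 genes have 38 transcripts: 16 are Ensembl transcripts, 12 are assembled with at least 90% of their length inside the Ensembl span, 6 are assembled and reach further, and 4 are named antisense or overlapping. When all genes were summed again from the first 2 classes, DMC1, MEIOB, PSMC3IP, SPATA22 and HFM1, each above 1 FPKM in calf 1 and calf 2 too, were called higher in bulls with and without calf 3. Of all genes in this version, 35.2% of 17260 were called higher, and 39.1% of 16383 without calf 3. MSH4 and MSH5 were below 1 FPKM in every calf and entered this test only through the bulls, so that their calls rest partly on the filter. MSH4 had a log2 fold change of 1.40 (adjusted p = 0.00136) and 1.25 without calf 3 (adjusted p = 9.65e-04), and MSH5 had 1.36 (adjusted p = 0.00161) and 1.16 without calf 3 (adjusted p = 3.94e-04). From Ensembl transcripts alone, DMC1, PSMC3IP and SPATA22 were called higher, beside 25.6% of 13737 genes, and so were MEIOB and MSH5, which were below 1 FPKM in every calf and entered only through the bulls. In the version within the span SPO11 and PRDM9 were not tested, because SPO11 stayed at or below 0.240 FPKM in every library and PRDM9 reached 1 FPKM in only 2. The calls of MSH5 and SPO11 and, without calf 3, of MSH4 thus changed with the transcripts counted as theirs, whereas DMC1, MEIOB, PSMC3IP, SPATA22 and HFM1 were called by gene rows and within the span.

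**Figure D3:**
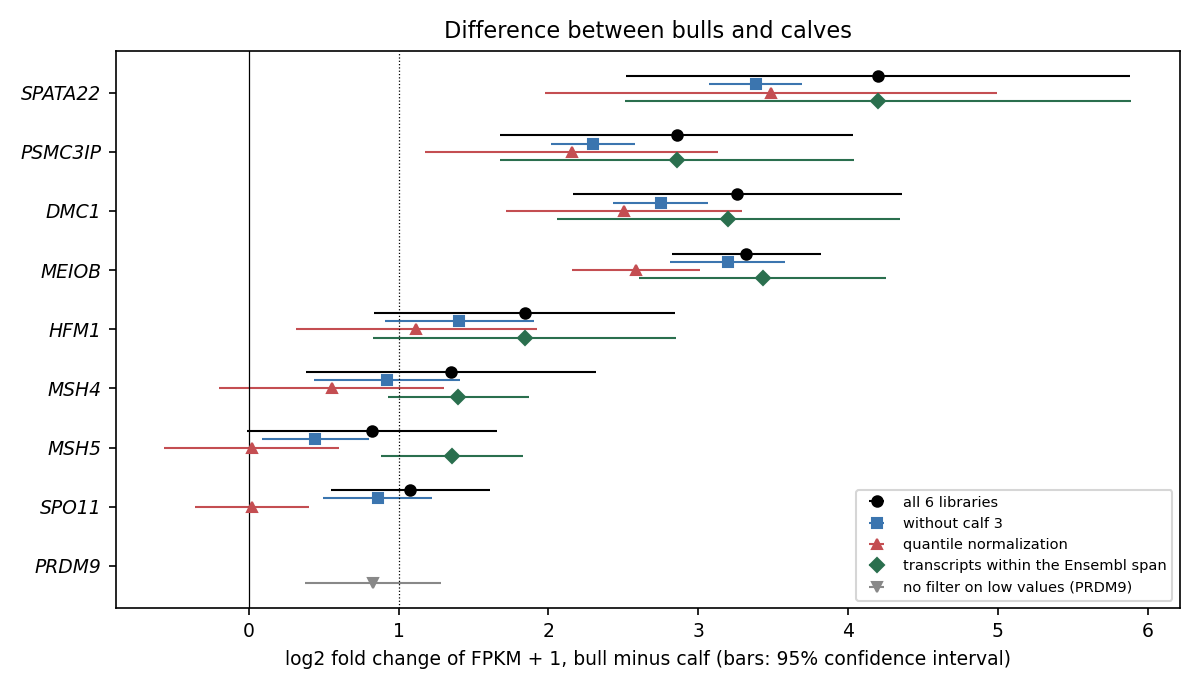
Log2 fold change of FPKM + 1 (bull minus calf) for each recombination gene with its 95% confidence interval. The versions are all 6 libraries, without calf 3, quantile normalization, and transcripts within the Ensembl span. PRDM9 is shown only from the fit with no filter, and SPO11 has no point within the Ensembl span. The dotted line marks the 2-fold limit of a call. The points of SPATA22, MEIOB, DMC1 and PSMC3IP lie beyond 2-fold in all 4 versions plotted for them, whereas MSH5 moves from 0.02 with quantile normalization to 1.36 over transcripts within its span.

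The scale of the libraries bore on the weaker members. Quantile normalization, which gives all libraries the same distribution of values, moved the median log2 fold change of all genes tested from 0.43 to -0.26, with 21.1% of genes called higher and 25.1% lower. Under it DMC1 (2.51), MEIOB (2.58), PSMC3IP (2.16), SPATA22 (3.49) and HFM1 (1.12) were still called higher. Without calf 3, 4 of 8 remained, against 21.7% of all genes, and HFM1 (0.70) was the one lost. With all 6 libraries MSH4 stood at 0.55, and SPO11 and MSH5 both stood at 0.02, with -0.28 and -0.32 when calf 3 was left out as well, so that their direction depends on the scale. Rescaling each library to the same sum of FPKM moved the other way, with a median of 0.66 over all genes tested and 39.0% of 19171 genes called higher. All 9 members were then tested and called higher, MSH5 (1.09, adjusted p = 0.0176) and PRDM9 (1.04, adjusted p = 0.00153) among them. On that scale SPO11 and PRDM9 were below 1 in every calf and entered the test only through the bulls, so that their calls rest partly on the filter.

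Ratios of members to their working partners within a library do not depend on the scale of the library. PSMC3IP was at 0.685, 0.608 and 0.775 times the FPKM of MND1, with which it forms a complex, in the calves and at 0.772, 0.710 and 0.828 times in the bulls. These ranges overlapped through calf 3 alone, and calf 1 and calf 2 lay below every bull. The log2 ratio after adding 0.1 FPKM was 0.15 higher in bulls (two-sided exact permutation test, p = 0.3, and 0.45 after adjustment over 3 pairs) and 0.24 higher without calf 3.

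MEIOB was at 0.275 and 0.300 times SPATA22 in calf 1 and calf 2 and at 0.409, 0.344 and 0.323 times in the bulls, and in calf 3 no ratio could be formed because SPATA22 was listed at 0. The exact permutation test on the log2 ratio gave p = 1 with calf 3, and the bulls lay above calf 1 and calf 2 by 0.24 without it. MSH4 was at 0.620, 0.810 and 0.0801 times MSH5 in the calves and at 1.16, 1.35 and 1.004 times in the bulls (two-sided exact permutation test, p = 0.1, which 3 animals against 3 cannot go below, adjusted p = 0.3). Over transcripts within the annotated spans this ratio was 0.345, 0.836 and 0 in the calves and 0.822, 0.935 and 0.796 in the bulls, and the groups overlapped.

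Levels were also set against genes of germ cells in the same library, for calf 1, calf 2 and the bulls, a comparison chosen after the values had been seen and given without a test. DDX4 and DAZL are expressed from spermatogonia onward, and SYCP3 builds the chromosome axis in spermatocytes. SPATA22 was at 28.6% and 24.8% of DDX4 in calf 1 and calf 2 and at 34.4%, 37.9% and 34.9% in the bulls. MEIOB was at 7.86% and 7.44% of DDX4 in the calves and at 14.1%, 13.0% and 11.2% in the bulls. Relative to DDX4, MEIOB (1.67-fold) and SPATA22 (1.34-fold) were the 2 of 9 members above both calves in every bull, and 5 of 9 were below. DMC1 was at 19.1% and 11.9% of DDX4 in the calves and at 13.3%, 14.3% and 15.9% in the bulls, so these ranges overlapped. PSMC3IP was at 34.04% and 26.9% in the calves and at 17.6% to 18.8% in the bulls, and HFM1 was at 13.0% and 6.77% in the calves and at 2.91% to 4.49% in the bulls.

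The choice of the germ cell gene mattered. DDX4 itself was 9.22-fold higher in bulls than in calf 1 and calf 2, SYCP3 7.81-fold and DAZL 2.65-fold. Relative to DAZL, 5 of 9 members were above both calves in every bull and 1, MSH5, was below, and relative to SYCP3, 2 were above and 5 below. SPATA22 and MEIOB were above for all 3 germ cell genes. Counting only transcripts within the annotated spans gave 2 above and 4 below for DDX4, 7 above and 1 below for DAZL, and 3 above and 4 below for SYCP3, and the member below for DAZL was then SPO11.

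**Figure D4:**
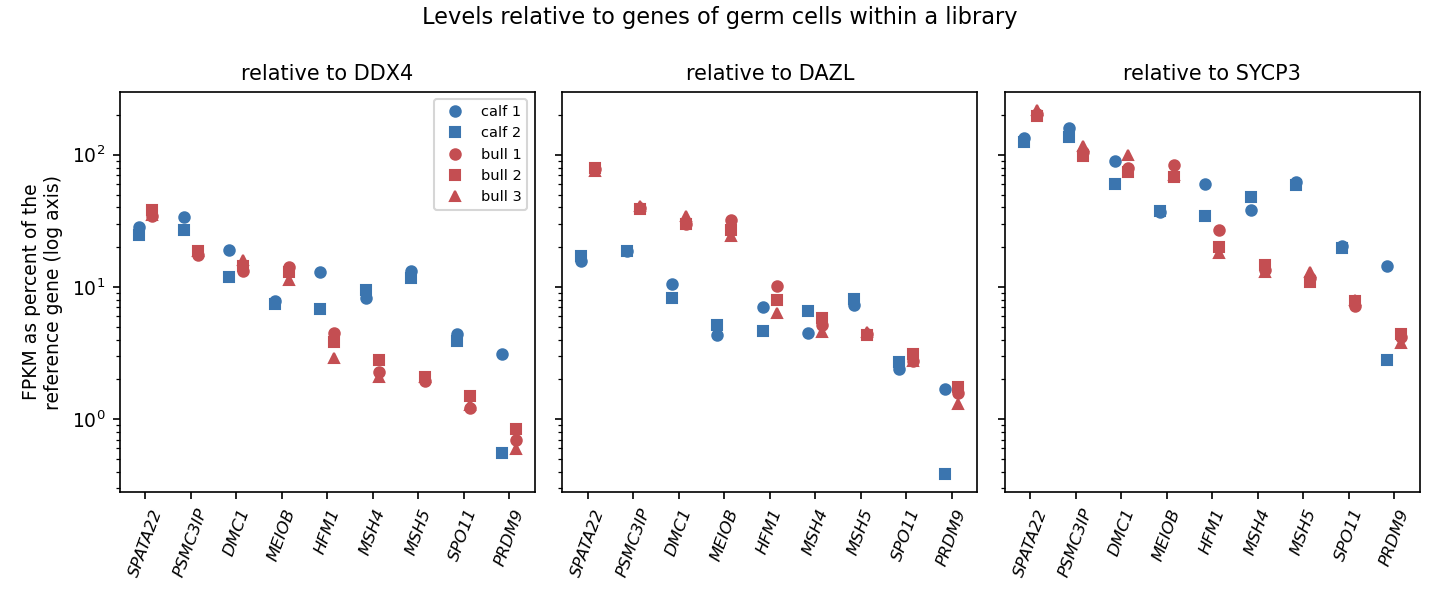
FPKM of each recombination gene as a percentage of DDX4, DAZL or SYCP3 in the same library, on a log axis, for calf 1 and calf 2 (blue) and the 3 bulls (red); calf 3 is left out because DDX4 was at 0.0152 FPKM and DAZL at 0 there. SPATA22 and MEIOB lie higher in bulls in all 3 panels, whereas PSMC3IP, HFM1, MSH4, MSH5 and SPO11 lie lower in bulls relative to DDX4 and SYCP3.

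The partners of these genes were read from 8 lists of 65 names, of which 61 had a row and 59 were tested. Of the 59, 25 (42.4%) were called higher in bulls and 0 lower, beside 35.7% and 9.61% of all genes tested. Without calf 3 these were 21 (35.6%) and 1, beside 39.5% and 12.2% of all genes. With quantile normalization they were 17 (28.8%) and 7 (11.9%), beside 21.1% and 25.1%. Among the proteins that assist SPO11 in break formation, 4 of 5 were called higher with and without calf 3, namely IHO1 (log2 fold change 4.44), ANKRD31 (2.37), REC114 (2.28) and MEI1 (2.14), the last named after its value was seen. IHO1 was below 1 FPKM in every calf and entered the test only through the bulls. MEI4, the other partner, had 4.72, 6.47 and 0.282 FPKM in the calves and between 2.38 and 3.97 FPKM in the bulls, which gave 0.13 with calf 3 and -0.65 without it. Of 4 genes that work with PRDM9 or at hotspots, ZCWPW1, the reader of its histone marks, was called higher (1.14) with calf 3 and not without it (0.79), and CXXC1 (0.81) and EWSR1 (0.45) were not called.

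Of 11 partners of DMC1 in strand exchange, 7 were called higher, beside 35.7% of all genes tested. Without calf 3 these were 3, beside 39.5% of all genes. RAD51AP2, among the 7 and named after its value was seen, was below 1 FPKM in every calf. It entered the test only through the bulls. HSF2BP, which brings BRCA2 to meiotic breaks, rose from 8.51, 10.6 and 4.35 FPKM in the calves by a log2 fold change of 3.05, and MND1 rose by 2.80. BRCA2 (-0.40) and FIGNL1 (0.41) were not called. None of the 3 RPA subunits, with which MEIOB and SPATA22 share the single-stranded DNA, was called by limma with or without calf 3. Over all 6 libraries RPA1 stood at -0.03 and RPA2 at 0.83, and 0 of the 3 had an unadjusted p under 0.05. Without calf 3 RPA1 stood at -0.33 (limma, adjusted p = 0.0266), short of the 2-fold limit, and RPA2 at 0.39 (adjusted p = 0.108). Every bull lay below calf 1 and calf 2 for RPA1.

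Of 12 crossover partners tested beside MSH4, MSH5 and HFM1, 6 were called higher with and without calf 3. Of all genes tested these were 35.7% and, without calf 3, 39.5%. CNTD1 (log2 fold change 4.05), SLX4 (3.62) and CCNB1IP1 (2.64), which act in the choice or resolution of crossovers, had the largest changes over all 6 libraries, and EME1 (0.44) and MLH3 (0.60) were not called. Without calf 3, PRR19 (2.57), named after its value was seen, was above CCNB1IP1 (2.21). CNTD1 had 0.627 and 0.839 FPKM in calf 1 and calf 2, so without calf 3 it entered the test only through the bulls. Its call there rests partly on the filter. Its only calf value above 1 FPKM was 1.12, in calf 3. TEX11, SHOC1 and SPO16, which work in the same crossover pathway as MSH4 and MSH5 and are named here after their values were seen, were not called either. TEX11 had 18.3 and 24.4 FPKM in calf 1 and calf 2, 0.0467 FPKM in calf 3 and 34.3, 46.5 and 36.5 FPKM in the bulls. Every bull thus lay above every calf for TEX11, and its log2 fold change was 2.31 (SE 1.22, adjusted p = 0.156) with calf 3 and 0.84 without it. SPO16 had 8.72 and 9.89 FPKM in calf 1 and calf 2, was listed at 0 in calf 3 and had 9.26 to 13.1 FPKM in the bulls. The 5 mismatch repair genes of dividing cells, relatives of MSH4 and MSH5, gave 0 calls by limma, MSH3 (-0.66) among them; 2 of the 5 had an unadjusted p under 0.05. With quantile normalization 2 of the 5 were called lower, MSH3 (-1.21) among them.

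Among 11 genes that resect and repair breaks in all cells, 2 were called higher, BRCA1 (1.85) and XRCC2 (1.12), beside 35.7% of all genes tested. BLM (0.37) and MRE11 (0.60) were not called. Without calf 3, 2 of the 11 were called higher and 1 lower, beside 39.5% and 12.2% of all genes. The lower one was RBBP8 (-1.42), a resection factor named after its value was seen. Of 8 regulators of meiotic entry and of the meiotic transcription program, 5 were called higher, again beside 35.7% of all genes tested. They were led by MEIOC (4.91), TCFL5 (3.30) and STRA8 (3.01), and E2F6 (-0.52) and L3MBTL2 (0.88) were not called. Without calf 3, 6 of the 8 were called higher, L3MBTL2 among them, beside 39.5% of all genes. L3MBTL2 was below 1 FPKM in calf 1 and calf 2 and entered that test only through the bulls.

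**Figure D5:**
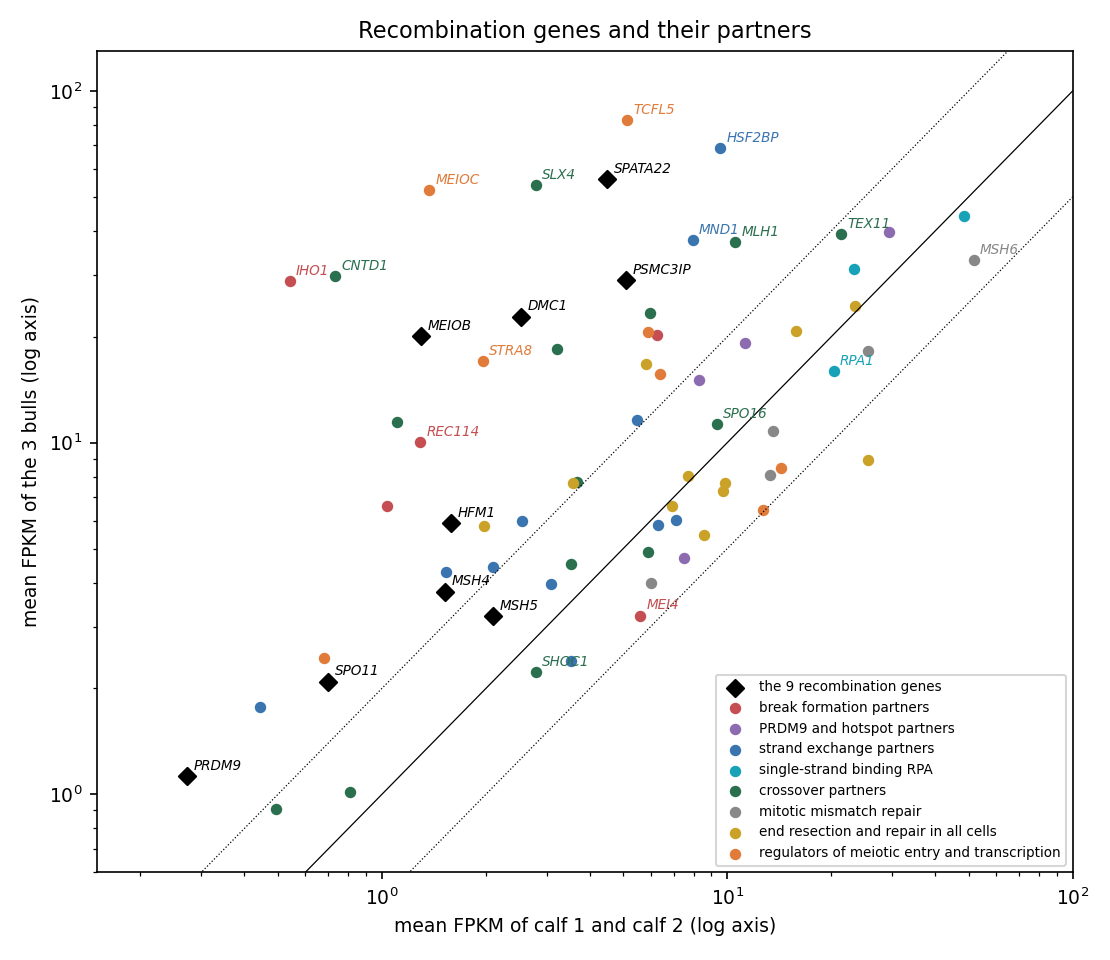
Mean FPKM of the 3 bulls against mean FPKM of calf 1 and calf 2, on log axes, for the 9 recombination genes (black diamonds) and the genes of 8 partner lists (dots coloured by list); the solid line marks equality and the dotted lines 2-fold. All diamonds but MSH5 lie above the upper dotted line, whereas the 5 mismatch repair genes lie below the line of equality.

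The genes whose levels over the 6 libraries came nearest to the mean profile of the 8 members tested were sought among 13310 named genes. By Euclidean distance of log2(FPKM + 1) they were DEPDC1B (0.373), CYCT (0.386), ENTHD1 (0.474), MAGEB16 (0.476) and CDCA8 (0.477). The members themselves lay at 1.504 to 4.13 from that mean, so they differed from each other by more than these genes did from their mean. DEPDC1B had 1.94, 1.79 and 0.0716 FPKM in the calves and 11.1, 12.7 and 10.6 FPKM in the bulls. CYCT, the cytochrome c of the testis, had 2.39, 2.0 and 0.402 FPKM in the calves and 10.8, 12.8 and 12.1 FPKM in the bulls.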

How the data were processed

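The deposited tables give FPKM values of 47249 genes and 108527 transcripts in 6 libraries, and no counts, so the depth behind a value is unknown. According to the methods, the authors used TopHat2 to map strand-specific reads and StringTie to assemble transcripts. For circular RNAs the methods name Cuffdiff and edgeR, and the paper's results name Cuffdiff and Ballgown. The tool behind the FPKM values of these tables, and whether it used strand, are not given in the sources used here. A gene and its antisense partner may therefore share reads. The deposited FPKM of each member equalled the sum over its transcripts. The methods name a UMD assembly, but all 9 members overlapped the RefSeq locus of the same symbol on an ARS-UCD assembly, and positions are as the table gives them.

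Values were transformed to log2(FPKM + 1), which draws changes of weak genes toward 0. Genes that reached 1 FPKM in 3 or more of the 6 libraries were fitted with limma 3.58.1 in R 4.3.3 (two-sided, with a trend), with Benjamini-Hochberg adjustment of p over all of them. Calls were made at an adjusted p under 0.05 together with a change of 1 or more in log2. The procedure was tested on simulated data. Alternatives covered scaling, pseudocount, filter, trend, library weights, replicate number as a block and each library left out, and after seeing the data the choice of transcripts and pairs of settings. Replicate numbers name different animals and were not used as pairs in the main fit. Deviations from the group means correlated at 0.0246 to 0.0341 between calves and bulls of the same number. Between those of different numbers they correlated at -0.0487 to 0.0221, which is lower, and all of these correlations were small. Each library is 1 animal, and p-values measure the spread between these animals. The members and lists were chosen with earlier results of these data known. From each partner list, up to 3 called genes with the largest change and up to 2 genes not called, in alphabetical order, were named, and some genes that this rule picked are not reported here. No sequences were used here.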

Additional observations from a re-analysis of the deposited data

How the results depend on the processing

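The count of members called was 7 of 8 tested, beside 35.7% of 18115 genes called higher. It became 3 of 8 with a pseudocount of 0.01, where 8679 of 18115 genes were called in either direction. With quantile normalization without calf 3 it was 4 of 8, beside 21.7% of 17329 genes called higher. The counts of genes and transcripts that follow are calls in either direction. Leaving out 1 library at a time gave 4 to 8 members, 3519 to 8955 genes (8215 with all libraries) and 3383 to 10746 transcripts (10255 with all libraries). The low ends came from leaving out any bull (bull 1, 3519 genes and 4 members; bull 2, 3551 and 4; bull 3, 3593 and 5), where the filter then needs a calf at 1 FPKM and 14344 to 14437 genes were tested. In each of the fits without a bull, 7 members were tested, and the share of genes called higher is not given here. Ensembl transcripts only gave 5124 genes and 5 of 5 members tested, beside 25.6% of 13737 genes called higher. With a replicate block the counts were 8128 genes, 10087 transcripts and 7 of 8 members. The correlations between same-numbered animals were small, though above those between the others. DMC1, MEIOB and PSMC3IP were called under each of 21 alternatives, SPATA22 under 20 of 21, HFM1 under 16 of 20, MSH4 under 9 of 20, SPO11 under 9 of 15, MSH5 under 5 of 21 and PRDM9 under 1 of 4. Alternatives in which a gene did not pass the filter are left out of these totals. SPO11 thus had no fit with a bull left out, with Ensembl transcripts only or within the Ensembl span. The calls of SPO11 with the filter at 1 FPKM, and the call of PRDM9, rest partly on the filter.

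Direction turned in these cases, and the cause was not tested. Quantile normalization gave -0.67 for MEI4, -0.32 for EWSR1, -0.21 for FIGNL1, -0.13 for EME1, -0.0395 for MRE11, -0.14 for BLM and -0.037 for L3MBTL2. Quantile normalization without calf 3 gave -0.28 for SPO11, -0.32 for MSH5, -1.32 for MEI4, -0.39 for EWSR1, -0.37 for FIGNL1, -0.39 for RPA2, -0.30 for EME1, -0.32 for MRE11 and -0.0619 for L3MBTL2. MEI4 was at -0.57 with library weights, ran from -0.65 to 0.62 when 1 library was left out, and was at -0.65 without calf 3, also with no filter or with transcripts within the Ensembl span. BRCA2 was at 0.21 with Ensembl transcripts only and within the span, and EME1 at -0.30 within the span and -0.49 there without calf 3. RPA1 was at 0.18 when libraries were rescaled to a common total, and leaving out 1 library at a time it ran from -0.33 to 0.15. The difference between bulls and calves (bull minus calf) in the log2 ratio of MEIOB to SPATA22 was -1.38 with calf 3, where SPATA22 is listed at 0. This difference ran from -2.21 to 0.24 when 1 library was left out, with 0.24 without calf 3. Over the single genes and ratios, 663 further values kept their direction and side of the threshold, 47 lost a call and 25 gained one.

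The table holds no counts, so a value of 0 or a few hundredths of an FPKM carries no known limit, and SPO11, PRDM9 and calf 3 are the most affected. The ratio of HFM1 to RNF212 and a search for promoter motifs, both planned, were not run because RNF212 has no row by that name and no sequence was used here.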
